A study of Mus musculus with 2 samples.

Results

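Tenocyte nuclei of mouse calf muscle were taken here as nuclei with 1 or more unique molecular identifiers (UMIs, each standing for 1 captured transcript) of at least 2 of 6 tendon genes, Tnmd, Thbs4, Fmod, Comp, Mkx and Scx. Selected on these measured counts, they numbered 173 of 16530 nuclei, or 1.05% (exact 95% interval 0.897 to 1.21%), and are called rule nuclei below. The study applied single-nucleus RNA sequencing to whole gastrocnemius and plantaris, calf muscles of wild-type C57BL/6 mice aged 12 weeks, with 1 library per muscle. Nuclei from minced, homogenised muscle were sorted by the DNA dye propidium iodide (PI), with no step that selects tendon. The sources used here do not give the number or sex of the mice. Rule nuclei were set beside 3489 comparison nuclei that held Pdgfra or Dcn, genes of muscle mesenchymal progenitors, and none of the 6 genes. Because the rule used the measured counts and each muscle is 1 library, every difference below is a description with no test, and every interval covers counting error only.

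Tenocytes are the fibroblast-lineage cells of tendon and of the aponeuroses in which muscle fibres end, and they lay down the aligned type I collagen fibrils that carry force. Scx (scleraxis), a basic helix-loop-helix factor, and Mkx (Mohawk), a homeodomain factor, are transcription factors of tendon formation. Tnmd (tenomodulin) is a membrane glycoprotein of tendon cells, Fmod (fibromodulin) is a leucine-rich proteoglycan that binds collagen fibrils, and Comp and Thbs4 are thrombospondins of the tendon matrix.

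Helix-loop-helix factors such as scleraxis bind the E-box, CANNTG, so the promoters of rule genes and of Col11a1, the first of the named higher genes, are shown with E-boxes in capitals. RefSeq promoters of build GRCm38.p6, 250 bases before to 50 bases after the start, were at hand for 3 of the 6 rule genes and for 10 of the 15 named higher genes. The Thbs4 promoter lies at chr13:92794769-92795068 on the minus strand, Fmod at chr1:134037004-134037303, Tnmd at chrX:133850758-133851057 and Col11a1 at chr3:114030290-114030589, the last 3 on the plus strand.
Thbs4: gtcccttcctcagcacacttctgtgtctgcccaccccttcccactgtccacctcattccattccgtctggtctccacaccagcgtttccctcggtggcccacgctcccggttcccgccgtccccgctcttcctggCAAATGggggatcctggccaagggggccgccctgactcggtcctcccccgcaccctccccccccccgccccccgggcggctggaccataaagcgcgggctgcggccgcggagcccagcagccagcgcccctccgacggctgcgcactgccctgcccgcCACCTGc
Fmod: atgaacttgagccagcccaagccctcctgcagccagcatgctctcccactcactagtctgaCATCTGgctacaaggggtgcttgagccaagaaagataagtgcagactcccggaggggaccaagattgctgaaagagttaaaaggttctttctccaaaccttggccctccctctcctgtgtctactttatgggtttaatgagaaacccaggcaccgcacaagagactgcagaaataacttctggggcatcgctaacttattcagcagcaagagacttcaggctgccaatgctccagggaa
Tnmd: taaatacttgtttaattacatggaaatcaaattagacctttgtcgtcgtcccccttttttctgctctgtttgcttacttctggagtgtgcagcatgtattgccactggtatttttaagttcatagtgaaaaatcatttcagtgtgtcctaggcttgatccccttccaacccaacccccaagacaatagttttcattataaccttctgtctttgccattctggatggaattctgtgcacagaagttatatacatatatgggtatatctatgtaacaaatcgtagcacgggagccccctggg
Col11a1: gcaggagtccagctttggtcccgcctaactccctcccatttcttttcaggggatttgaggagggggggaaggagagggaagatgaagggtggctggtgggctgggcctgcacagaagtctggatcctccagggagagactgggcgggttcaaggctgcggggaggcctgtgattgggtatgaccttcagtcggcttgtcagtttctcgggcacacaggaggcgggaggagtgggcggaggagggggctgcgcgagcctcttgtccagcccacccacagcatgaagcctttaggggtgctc
The Thbs4 window held 2 E-boxes, the Fmod window 1, and the Tnmd and Col11a1 windows 0. E-boxes read the same on both strands and are common: 72.3% of 32851 promoters of this length held at least 1, and 39.6% held at least 2. Among the genes higher in rule nuclei by the measure given below, 118 had a promoter and 56.8% of these held an E-box, beside 62% of 7337 promoters of all genes measured. A match is a match of letters only.

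Plantaris held 141 rule nuclei of 9156, or 1.54% (1.30 to 1.81%), and gastrocnemius 32 of 7374, or 0.434% (0.297 to 0.612%). Rule nuclei were deeper in plantaris, with a median of 3149 UMIs against 1532 in gastrocnemius, and a rule that needs 2 detected genes is met more easily at depth. When each nucleus was thinned to 1000 UMIs, leaving out 1084 and 1070 shallower nuclei, 49 of 8086 plantaris nuclei (0.606%) and 16 of 6290 gastrocnemius nuclei (0.254%) met the rule. Plantaris thus kept the larger share at equal depth. The 2 libraries shared 17 barcode sequences, and 0 rule nuclei carried one of them.

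Thbs4 and Mkx carried most of the rule. Thbs4 was detected in 29 of 32 gastrocnemius and 112 of 141 plantaris rule nuclei, at 1029 UMIs per 1000000 UMIs (CPM; Poisson interval 821 to 1274) and 442 CPM (398 to 489). Mkx was detected in 25 and 101 rule nuclei, at 698 CPM (529 to 904) in gastrocnemius and 287 CPM (252 to 326) in plantaris. Both genes thus stood higher per UMI in the gastrocnemius rule nuclei, where the nuclei were shallower and 2 UMIs are a larger share of a nucleus. In the rule nuclei of the cluster that held most of them, described below, the log2 ratios of plantaris over gastrocnemius were -0.88 for Thbs4 and -0.67 for Mkx. Over all nuclei of that cluster, Thbs4 stood at 1131 and 776 CPM and Mkx at 666 and 536 CPM (gastrocnemius, then plantaris). The part of depth in this difference was not tested. Fmod followed with 11 and 75 nuclei, at 172 CPM (93.7 to 288) and 151 CPM (126 to 180), levels that did not differ beyond their intervals. Comp was detected in 4 and 42 nuclei, at 61.2 and 69.0 CPM. Tnmd rested on 2 UMIs in 2 gastrocnemius nuclei and 29 UMIs in 19 plantaris nuclei, 8 of them in 1 nucleus. Scx was seen in 8 plantaris rule nuclei with 10 UMIs and in 0 of 32 in gastrocnemius. Taking 3 nuclei as the limit of a count of 0, this allows a share with a UMI of up to 9.38% and sets no limit on nuclei that express the gene. UMIs counted at 3' ends are not divided by gene length here, so no order of level among the genes is read.

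The commonest pair was Thbs4 with Mkx, in 102 rule nuclei (22 in gastrocnemius and 80 in plantaris), of which 49 held no other gene of the 6. Thbs4 with Fmod was found in 66 and Fmod with Mkx in 50. In gastrocnemius, 25 rule nuclei held 2 of the genes and 7 held 3. In plantaris, 87 held 2, 36 held 3, 16 held 4, 1 held 5 and 1 held all 6. As a gauge of background, the 6 genes were counted in nuclei without Pdgfra or Dcn whose share of muscle-fibre UMIs was at or above the library median. These numbered 3439 in gastrocnemius and 4278 in plantaris, with median depths of 2944 and 3296 UMIs. Thbs4 was detected in 1.34% and 1.36% of them, Mkx in 0.116% and 0.655%, and each of the other 4 genes in 0.257% or less. Whether these UMIs were free RNA or transcripts of the muscle-fibre nuclei themselves was not tested. The shares in rule nuclei follow from the rule and are no comparison with these values.

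**Figure D1:**
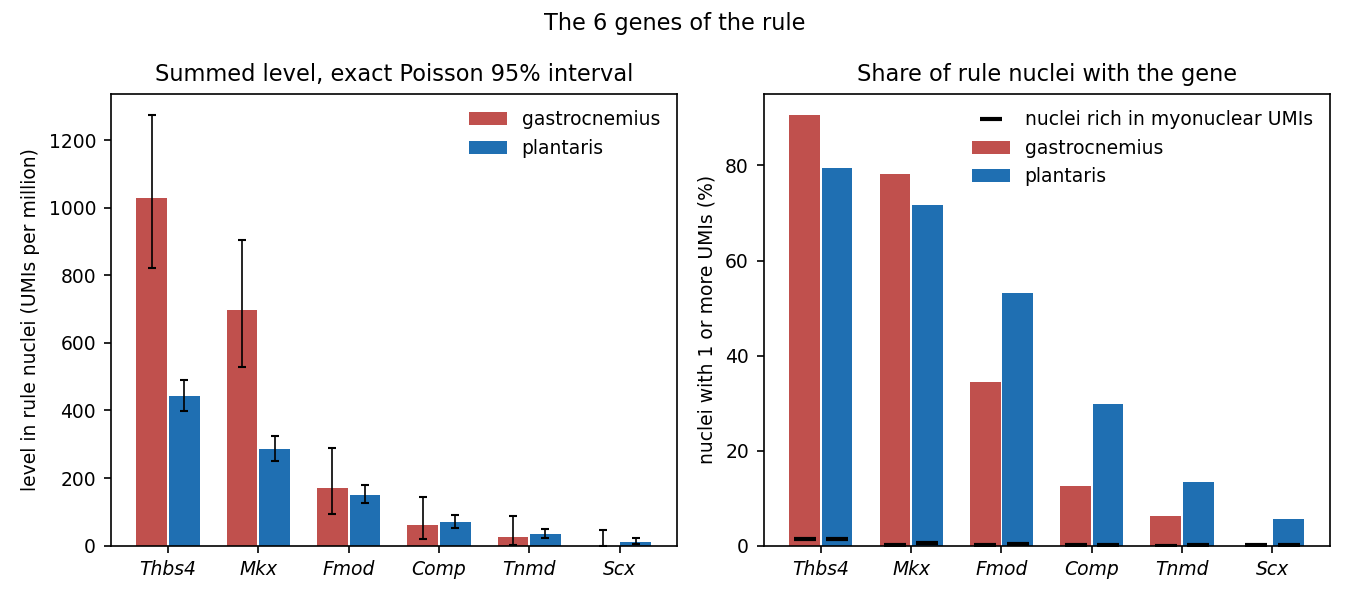
The 6 genes of the rule in rule nuclei of gastrocnemius (red) and plantaris (blue). Left, summed level in CPM with exact Poisson 95% intervals, where Thbs4 and Mkx stand higher in gastrocnemius. Right, the percent of rule nuclei with the gene, with black marks for nuclei at or above the median share of muscle-fibre UMIs and without Pdgfra or Dcn, at 1.36% or less.

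Just outside the rule lay 157 gastrocnemius and 307 plantaris nuclei with exactly 1 of the 6 genes, and for 112 and 136 of these the gene was Thbs4. These nuclei resembled muscle-fibre nuclei: Ttn, Neb, Ckm, Ryr1, Trdn, Acta1 and Dmd together held a median of 7.81% and 6.21% of their UMIs, beside 8.60% and 7.04% in all nuclei of the library. In nuclei just inside the rule, with exactly 2 genes, the same 7 genes held 1.41% and 1.34%. Clusters made without the 6 genes divided the nuclei in the same way: 21 of 25 gastrocnemius and 60 of 87 plantaris nuclei with exactly 2 genes lay in 1 cluster, number 13, beside 20 of 157 and 43 of 307 nuclei with exactly 1.

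Cluster 13 held 114 of the 173 rule nuclei, or 65.9% (58.3 to 72.9%), with 26 of 32 from gastrocnemius and 88 of 141 from plantaris. Among 25 clusters of all nuclei it was small, with 206 nuclei, and its leading genes by fold were Ccn4, Lpar3, Col11a1, Chad, Cilp2, Zfp185, Kirrel3, Tnc, Atp6v0a4 and Insc. Several of these encode extracellular matrix proteins of tendon or cartilage, among them type XI collagen, chondroadherin, cartilage intermediate layer protein 2 and tenascin-C. With Thbs4 detected in 60.7% and 59.3% of its nuclei, Mkx in 46.4% and 49.3% and Fmod in 19.6% and 33.3% (gastrocnemius, then plantaris), the cluster is called tenocyte-like. It was picked for holding most rule nuclei, so these shares follow in part from the rule and the name is only a label. It also held 92 nuclei outside the rule, 63 with 1 of the 6 genes and 29 with 0, at a median of 1182 UMIs against 1728 for its rule nuclei. By cluster, tenocyte-like nuclei made up 1.64% of plantaris (1.39 to 1.92%) and 0.759% of gastrocnemius (0.574 to 0.985%). It held 8 comparison nuclei.

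The other 59 rule nuclei, 6 from gastrocnemius and 53 from plantaris, did not bear out the name as well. They were deep, with a median of 6586 UMIs, and 19 of them held 10000 UMIs or more. Cluster 14 held 26 of them at a median of 10901 UMIs, where its nuclei as a whole had 3564. Of those 26, 18 held 2 or more macrophage markers, 14 held 2 or more mural markers and 23 held Pdgfra or Dcn. Clusters 2, 12 and 8, where Pdgfra or Dcn was found in most nuclei, held 10, 5 and 3. In plantaris the 19 rule nuclei with 10000 UMIs or more made up 52.2% of all UMIs of the rule nuclei, so summed values there weigh them heavily. Whether such nuclei hold RNA of more than 1 cell was not tested, and results are therefore also given for cluster 13 alone.

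**Figure D2:**
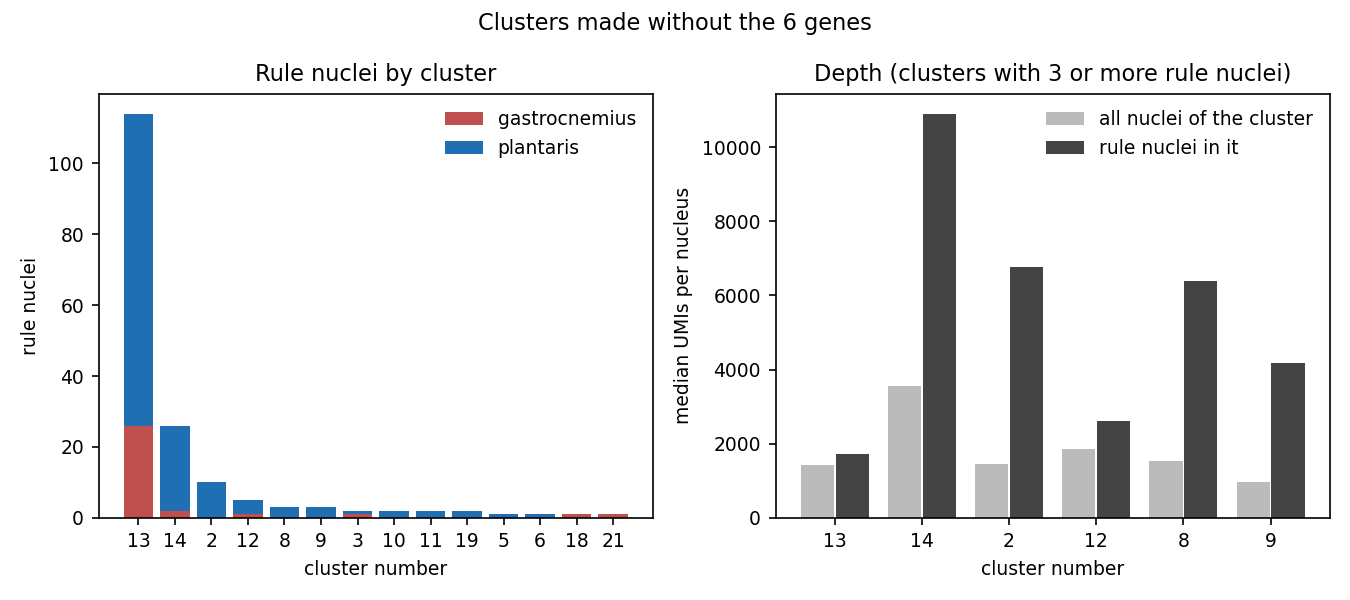
Left, number of rule nuclei in each cluster that holds any, gastrocnemius in red and plantaris in blue. Right, median UMIs per nucleus in all nuclei of a cluster (grey) and in its rule nuclei (black). Cluster 13 holds 114 rule nuclei near its own depth, and cluster 14 holds 26 at a median of 10901 UMIs.

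Against the comparison nuclei, rule nuclei were 2-fold or more higher in both libraries for 170 of 9372 genes (1.81%) and 2-fold or more lower for 18 (0.192%), among genes with at least 20 UMIs over both groups in each library. The genes of the rule and Pdgfra and Dcn were left out of these counts. The median log2 ratio over all these genes was 0.00 in gastrocnemius and 0.01 in plantaris. Depth limited the gastrocnemius side, where 1 UMI in the summed rule nuclei was worth 12.2 CPM against 1.21 CPM in plantaris: 45 of the 170 rested on 1 to 3 UMIs there, and 122 of the 170 had intervals that excluded equal levels in both libraries. The rule chose the nuclei on this same contrast, so nothing is read from these counts. The 2 shares, 1.81% higher and 0.192% lower, hold for every list count against comparison nuclei below and are not repeated at each. A list count of 0 lies near them and is not read as a result. When each nucleus counted equally, by the mean of the CPM of each nucleus, 279 genes were higher and 269 lower, so 50.9% of the genes past 2-fold were higher, against 90.4% with summed UMIs. With the rule nuclei of cluster 13 alone, 322 genes were higher and 113 lower.

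Col11a1, a chain of the type XI collagen that nucleates thin fibrils, ranked first among the higher genes by the smaller of its 2 log2 ratios, among genes past the UMI minimum. It had 28 UMIs in 16 of 32 gastrocnemius rule nuclei and 183 UMIs in 65 of 141 plantaris rule nuclei, with 8 and 28 UMIs in all comparison nuclei. Its level was 343 against 2.51 CPM in gastrocnemius, a log2 ratio of 7.10 (5.93 to 8.44), and 222 against 5.24 CPM in plantaris, a log2 ratio of 5.40 (4.82 to 6.03). In nuclei of cluster 13 that missed the rule it also stood at 343 and 449 CPM, so it was not limited to nuclei with 2 detected rule genes.

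Of 10 fibrillar collagen genes measured, 5 were higher and 0 lower, with list medians of 0.64 and 0.41 (log2). Col1a1 and Col1a2, the chains of type I collagen, had log2 ratios of 2.33 and 1.52 in gastrocnemius and of 1.90 and 1.22 in plantaris. In levels, Col1a1 stood at 233 and 290 CPM in rule nuclei and at 46.3 and 77.6 CPM in comparison nuclei. Col11a2, the partner chain of Col11a1, had log2 ratios of 4.70 and 3.18. Col24a1, a fibrillar collagen of low abundance, stood at 355 CPM in gastrocnemius and 65.4 CPM in plantaris rule nuclei, with log2 ratios of 4.15 and 1.76. Type III and type V collagen, which mix into or limit the width of type I fibrils, did not share this direction: Col3a1 had log2 ratios of -1.53 (-2.44 to -0.75) and -0.44 (-0.61 to -0.27), Col5a1 of -0.76 and -0.56, and Col5a2 of -0.84 and -0.40. In rule nuclei of cluster 13 against comparison nuclei of mesenchymal clusters the ratios of Col3a1 were -2.24 and -1.99. The balance of type I over type III messages thus differed between rule and comparison nuclei in both libraries.

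Among 16 fibril-associated and other collagens, 3 were higher and 1 lower. Col12a1, which coats fibrils in tendon, had 16 UMIs in 11 gastrocnemius and 154 UMIs in 73 plantaris rule nuclei, and its log2 ratios were 5.20 (4.12 to 6.28) and 4.75 (4.23 to 5.31). Col14a1, the related collagen XIV, went the other way at 24.5 against 71.1 CPM and 49.6 against 103 CPM, where the gastrocnemius value rested on 2 UMIs and its log2 interval ran from -4.59 to 0.33. Col13a1, a membrane collagen of cell-matrix contacts, had log2 ratios of 4.40 and 2.06. Col8a2 had log2 ratios of 5.29 and 3.73 but 4 UMIs in gastrocnemius. The basement membrane genes Col4a1 and Col4a2 had log2 ratios of -0.47 and -1.52 in gastrocnemius and of -0.31 and -0.39 in plantaris. In rule nuclei of cluster 13 against comparison nuclei of mesenchymal clusters both were past 2-fold, at -1.31 and -2.51 in gastrocnemius and -1.23 and -1.55 in plantaris.

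Matricellular proteins, secreted proteins that tune cell contact with the matrix, had 2 of 7 measured genes higher and 0 lower. These were Thbs2, with log2 ratios of 3.70 and 3.25, and Cilp, with 2.22 and 2.49. Several others missed the UMI minimum in gastrocnemius, where comparison nuclei held almost none of their UMIs. Tnc (tenascin-C, induced by load) had 6 and 62 UMIs in rule nuclei and 3 and 9 UMIs in the far larger comparison groups, log2 ratios of 6.29 (4.06 to 8.92) and 5.48 (4.46 to 6.67). Cilp2 had 5 and 55 UMIs in rule nuclei, with 0 and 10 UMIs in comparison nuclei, and Ccn4, a secreted signalling protein of the CCN family, had 5 and 17 UMIs with 0 and 1. Against the floor of 3 counts over the gastrocnemius comparison group, Cilp2 and Ccn4 were each at least 6.03 log2 units higher by their observed 5 UMIs, and counting error in those UMIs lowers the bound to 5.16. Ccn1 and Ccn2, targets of YAP and TGF-beta signalling, had log2 ratios of 3.70 and 4.77 in gastrocnemius and of 4.36 and 3.32 in plantaris.

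The small leucine-rich proteoglycans other than Fmod and Dcn gave 0 of 7 genes past 2-fold in both libraries, with list medians of 1.09 and 0.43 (log2). That count lies near the share over all genes and is not read as a result. Bgn (biglycan) and Prelp had log2 ratios of 2.75 and 3.42 in gastrocnemius, from 5 and 6 UMIs, and of 0.75 and 0.98 in plantaris. Chad (chondroadherin), below the UMI minimum, had 2 and 14 UMIs in rule nuclei with 0 and 6 in comparison nuclei. Prg4 (lubricin, the lubricant of gliding surfaces) was the 1 higher gene of 5 in the aggrecan and hyaluronan list, with log2 ratios of 3.33 and 2.14. Of 12 elastic fibre genes, 0 were higher and 2 (16.7%) lower, beside 1.81% and 0.192% of all genes. The list medians were -0.43 and -0.49 (log2). The 0 higher lies near the share over all genes and is not read as a result. Eln (elastin) stood at 24.5 against 150 CPM and 48.4 against 113 CPM, log2 ratios of -2.61 and -1.22, and Efemp1 (fibulin-3) had log2 ratios of -1.74 and -1.89. Fbn1 (fibrillin-1) was lower at log2 ratios of -1.54 and -0.50, whereas Fbn2 was seen with 33 UMIs in plantaris rule nuclei, 0 in gastrocnemius, and a plantaris log2 ratio of 4.93. Fbln1 and Mfap4 also stood higher in plantaris, with log2 ratios of 2.28 and 3.98, on 1 and 0 gastrocnemius UMIs.

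Of 18 enzymes and helpers of collagen processing and cross-linking, 3 were higher and 0 lower. P3h2, a prolyl 3-hydroxylase of collagens, had 35 and 307 UMIs in 17 and 89 rule nuclei, with log2 ratios of 5.51 (4.77 to 6.27) and 4.06 (3.75 to 4.38). Adamts3, a procollagen amino-propeptidase, had log2 intervals of 3.36 to 4.71 and 2.64 to 3.36, though 11 of its 28 gastrocnemius UMIs came from 1 nucleus. Its paralog Adamts2 had ratios of -0.58 and -0.34. Loxl3, a lysyl oxidase, had ratios of 1.77 and 1.51, and Loxl1 of -1.41 and -0.66. The general enzymes P4ha1, Plod1 and Plod2 had ratios of 0.46, 1.19 and -0.47 in gastrocnemius, where the interval of each included equal levels, and of 0.40, 0.45 and -0.23 in plantaris. Among 15 matrix-degrading enzymes and inhibitors, Adamts9 was the 1 higher gene, at 1.02 and 1.35, and Adamts5, an aggrecanase, had ratios of -1.03 and -0.97.

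**Figure D3:**
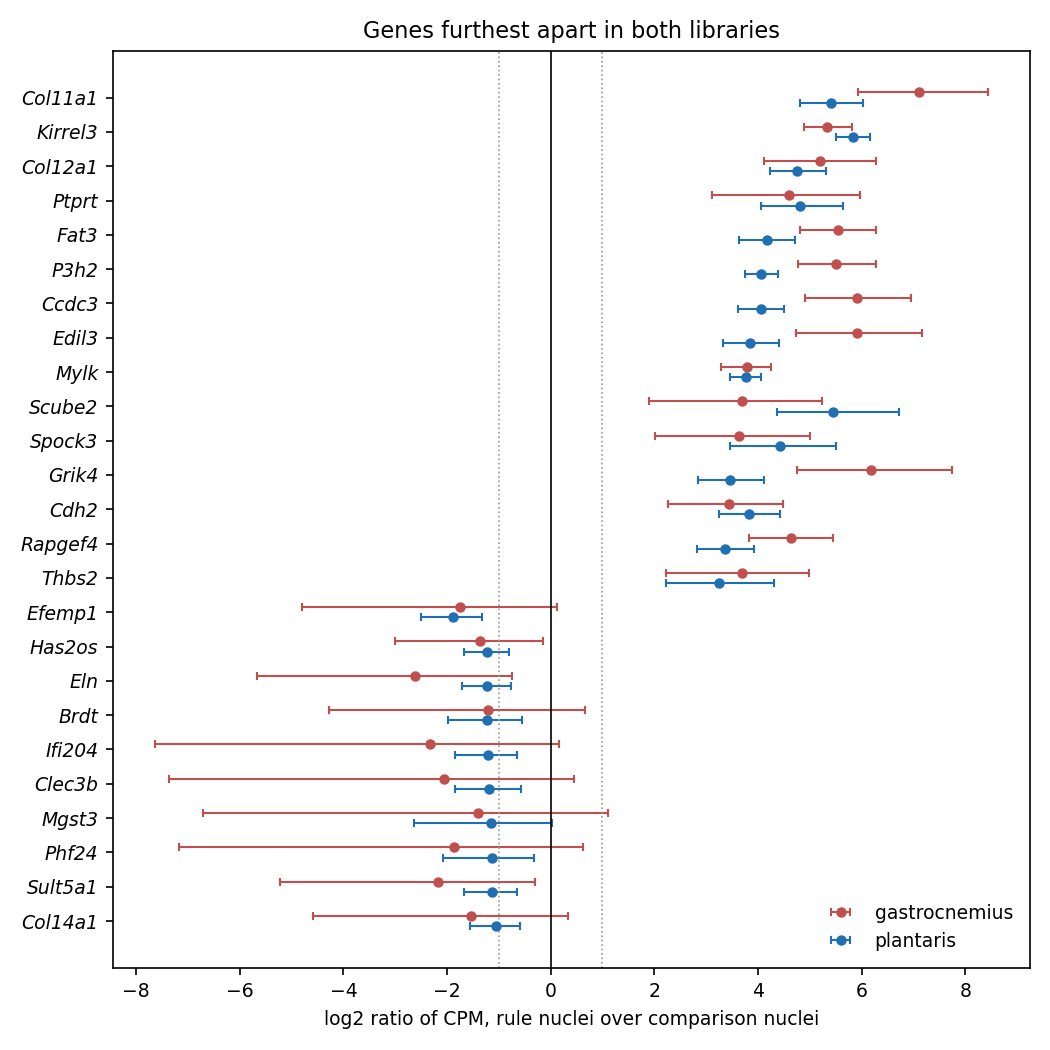
Log2 ratio of the summed level in rule nuclei over comparison nuclei for the 15 genes furthest above and 10 furthest below in both libraries, with exact 95% intervals; gastrocnemius red, plantaris blue, dotted lines at 2-fold. Col11a1 stands at 7.10 and 5.40, and the lower genes have wide gastrocnemius intervals from 1 to 5 UMIs.

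The other genes named as furthest above the comparison nuclei included adhesion, receptor and secreted proteins. Kirrel3, an immunoglobulin-family adhesion protein, had 82 and 781 UMIs in 19 and 78 rule nuclei and log2 ratios of 5.34 and 5.83. The protocadherin gene Fat3 had ratios of 5.54 and 4.17, the cadherin gene Cdh2 of 3.44 and 3.82, and the receptor phosphatase gene Ptprt of 4.59 and 4.81. Secreted proteins among them were Ccdc3 (5.91 and 4.06), the integrin ligand Edil3 (5.92 and 3.85), Scube2 (3.70 and 5.45) and the proteoglycan Spock3 (3.63 and 4.43). Mylk, the kinase of myosin light chains in non-muscle and smooth muscle cells, had ratios of 3.78 and 3.76. Rapgef4, an exchange factor opened by cyclic AMP, had 4.64 and 3.37, and the kainate receptor subunit Grik4 had 6.18 and 3.47. All 15 named higher genes stayed 2-fold or more higher in rule nuclei of cluster 13 against comparison nuclei of mesenchymal clusters, in both libraries. The genes were chosen on a contrast that includes these same nuclei, so this gives no added support. In plantaris all 15 stood lower in rule nuclei outside cluster 13 than in it, a description only, since these genes also shaped the clusters. Kirrel3 stood at 1691 and 2202 CPM in cluster 13 and at 29.6 and 464 CPM outside it.

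Among transcription factors linked to tendon, 1 of 8 was higher. Runx1 had 17 and 228 UMIs in rule nuclei, at 208 and 276 CPM against 25.99 and 50.7 CPM, log2 ratios with intervals of 2.16 to 3.77 in gastrocnemius and 2.18 to 2.70 in plantaris. Eya2, a transcriptional coactivator, had ratios of 1.48 and 0.77, and its paralog Eya1 of 0.04 and 0.06. Egr1, a load-responsive factor, had 1 and 5 UMIs in rule nuclei, and Sox9 and Tbx5 had 0 in either library, which at the floor of 3 counts allows 36.7 CPM in gastrocnemius and 3.63 CPM in plantaris. Mechanosensing genes gave 3 of 14 higher. Piezo2 and Piezo1, stretch-gated channels, had log2 ratios of 3.70 and 1.41 in gastrocnemius and 1.98 and 1.02 in plantaris, and Itga1, a collagen-binding integrin, of 1.57 and 1.09. Itga10 and Itga2, also collagen-binding, had plantaris ratios of 1.90 and 1.88 on 23 and 46 UMIs, and gastrocnemius ratios of 3.42 and 0.73 on 3 and 2 UMIs. Yap1, Wwtr1 and Tead1 stayed within 2-fold, at -0.13, 0.34 and 0.03 in gastrocnemius and 0.24, 0.51 and 0.10 in plantaris.

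TGF-beta signalling, which maintains tendon cells, gave 0 of 16 genes past 2-fold in either direction, with list medians of 0.23 and 0.17 (log2). Over all genes 1.81% were higher and 0.192% lower, so 0 of 16 lies near that share and is not read as a result. Tgfbr3 (betaglycan) was found in 29 of 32 and 122 of 141 rule nuclei, with log2 ratios of 0.91 and 0.49, and Tgfb2 had -0.10 and -0.27. Of 14 BMP genes, Bmp5, a secreted ligand, was the 1 higher, with 38 UMIs in 18 gastrocnemius and 92 UMIs in 44 plantaris rule nuclei and log2 ratios of 2.79 (2.25 to 3.29) and 1.39 (1.03 to 1.75). The receptor gene Bmpr1b had -0.55 and 0.99, and 2.24 in plantaris rule nuclei of cluster 13 against mesenchymal clusters. FGF and IGF genes gave 0 of 13, and Wnt and hedgehog genes 0 of 11, again near the share over all genes. Fgf1 had log2 ratios of 1.40 and 0.43. Angiogenesis control gave 3 of 9 higher: Sema3a, a guidance cue that repels axons and vessels, at 2.97 and 3.23, Vegfc at 1.29 and 1.91, and Serpinf1, an angiogenesis inhibitor, at 1.56 and 1.19. Angptl7 had ratios of 3.70 and 3.44 from 4 and 82 UMIs.

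Genes of mesenchymal progenitors were lower or near equal. Pdgfra and Dcn, which chose the comparison nuclei, were still detected in 16 of 32 gastrocnemius and 88 of 141 plantaris rule nuclei, with Dcn at 355 and 464 CPM. Bmper, a BMP-binding protein, had log2 ratios of -0.68 and -0.91, Col15a1 of -1.08 and -0.59, and Abca8a of -0.94 and -0.77. The list as a whole, with 6 genes measured, had medians of -0.75 and -0.84 (log2) and 0 genes past 2-fold in both libraries. Of 12 tendon sheath and progenitor genes, Clec3b (tetranectin) was the 1 lower, at -2.05 and -1.18 on 1 gastrocnemius UMI, and Tppp3, a sheath gene, had 1 and 21 UMIs. Other named lower genes were Has2os, Brdt, Ifi204, Mgst3, Phf24 and Sult5a1, with plantaris log2 ratios between -1.23 and -1.13. The direction of Mgst3 and Phf24 was not stable: Mgst3 stood at 2.43 in gastrocnemius without nuclei rich in markers of another class, and Phf24 at 0.14 in plantaris at 1000 UMIs. Has2os is antisense to Has2, and the sources used here do not say whether counting used strand. Of the 18 lower genes, 14 rested on 3 or fewer gastrocnemius UMIs. Nuclei rich in muscle-fibre UMIs, taken as those whose share was at least 50% of the library median, made up 34.8% and 30.6% of comparison nuclei and 34.4% and 33.3% of rule nuclei, in gastrocnemius and plantaris.

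Macrophage markers set the rule nuclei of cluster 13 apart from the rest, a description only, since the clusters were made from these same counts. Other cell types were mixed. Macrophage markers (5 genes) summed to 465 and 403 CPM in all rule nuclei, against 79.5 and 124 CPM in comparison nuclei. In cluster 13 they summed to 20.9 CPM in gastrocnemius, from Mrc1 alone, and 0 CPM in plantaris, where all 5 were at 0. Outside it they reached 1096 and 557 CPM, and in gastrocnemius all 29 UMIs of F13a1 came from 1 nucleus. Over all rule nuclei both macrophage genes measured, Mrc1 and F13a1, were past 2-fold, with log2 ratios of 2.14 and 2.97 in gastrocnemius and 1.24 and 1.76 in plantaris. In rule nuclei of cluster 13, F13a1 had 0 UMIs and Mrc1 had 1. Mural markers (6 genes) were also lower in cluster 13, at 230 and 140 CPM, than outside it, at 326 and 435 CPM. Comparison nuclei had 353 and 332 CPM, so only plantaris stood above them outside cluster 13. Adipocyte markers (4 genes) stood at 73.5 CPM in gastrocnemius rule nuclei, from 1 Adipoq, 3 Plin1 and 2 Cidec UMIs, against 2.82 CPM in comparison nuclei. Only 1 gastrocnemius rule nucleus held 2 or more of these markers. They were at 0 in cluster 13 and at 178 CPM outside it, and in plantaris rule nuclei all 4 were at 0. Endothelial markers (6 genes) stood at 62.9 against 25.2 CPM in plantaris, with 43.7 CPM in cluster 13 and 70.3 CPM outside it. In gastrocnemius they stood below the comparison nuclei, with 20.9 CPM in cluster 13 and 0 outside it. Schwann markers (7 genes) stood at 24.5 against 61.1 CPM in gastrocnemius and 38.7 against 35.7 CPM in plantaris, and chondrocyte markers (4 genes) at 0 and 12.1 CPM. In plantaris these lists were higher in cluster 13, at 56.8 and 21.85 CPM, than outside it, at 31.8 and 8.37 CPM. Acan, which encodes the cartilage proteoglycan aggrecan, was at 0 in rule nuclei of both libraries.

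Muscle stem cell markers were not lower in cluster 13. Their 5 genes summed to 439 and 323 CPM in rule nuclei of cluster 13, against 60.7 and 77.2 CPM in comparison nuclei, and 3 of 4 measured were higher over all rule nuclei. Chodl (chondrolectin) made up most of it, at 292 and 227 CPM in cluster 13, with 9 of 26 and 24 of 88 nuclei. Pax7, the defining factor of muscle stem cells, stood at 41.8 and 30.6 CPM in cluster 13 from 2 and 7 UMIs, beside 20.04 and 28.1 CPM in comparison nuclei, and Myf5 was at 0 there in both libraries. Of the 114 rule nuclei of cluster 13, 3 of 26 and 7 of 88 held 2 or more of the 5 markers. Of the 7 muscle-fibre genes, 0 were past 2-fold between rule and comparison nuclei, with list medians of -0.08 and -0.01 (log2). Over all genes 1.81% were higher and 0.192% lower, so this 0 is not read as a result.

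**Figure D4:**
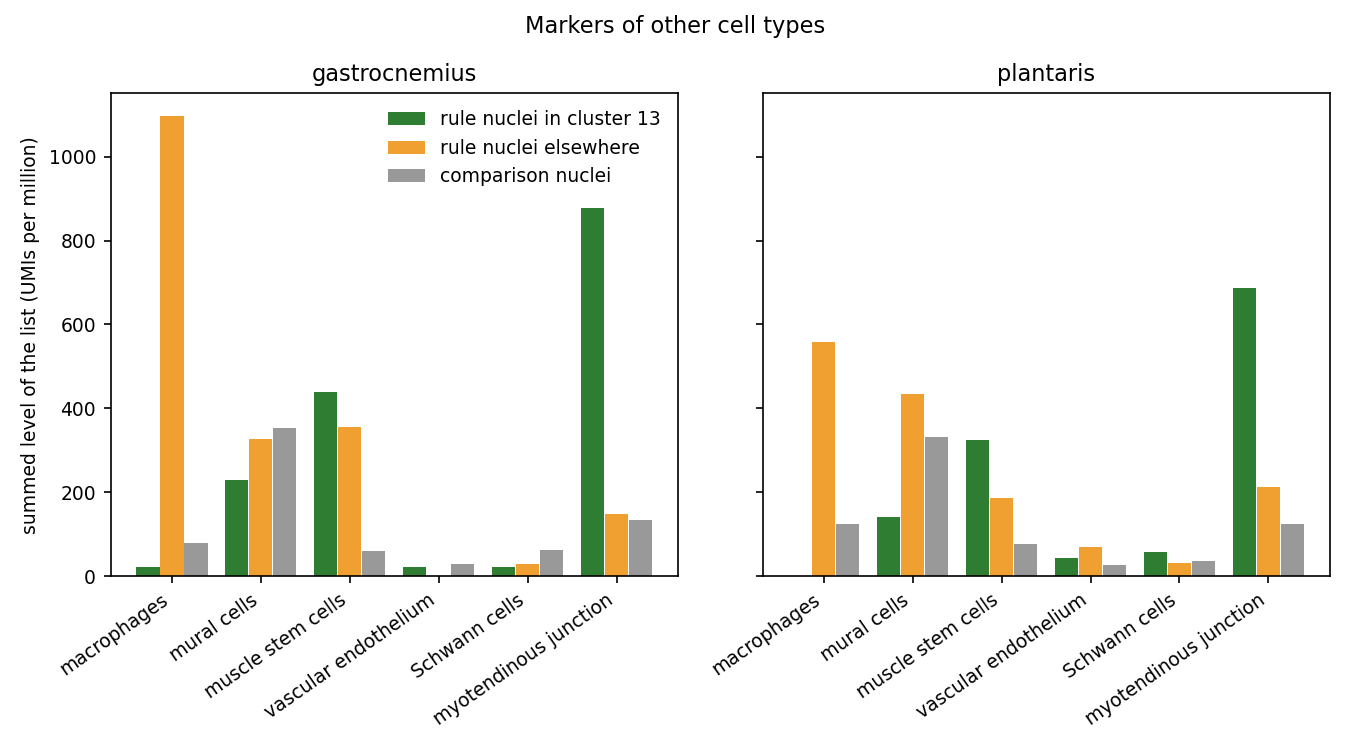
Summed level, in CPM, of marker lists of other cell types in rule nuclei of cluster 13 (green), rule nuclei elsewhere (orange) and comparison nuclei (grey), by library. Macrophage markers reach 1096 and 557 outside cluster 13 and 20.9 and 0 within it, whereas the stem cell and myotendinous lists are high within it, the second mainly from Col22a1 and Col24a1.

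Col22a1, a collagen of the myotendinous junction that muscle-fibre nuclei at the fibre end express, was detected in rule nuclei. It had 14 UMIs in 8 of 32 gastrocnemius nuclei, none with more than 3, and 144 UMIs in 25 of 141 plantaris nuclei, 22 of them in 1 nucleus. Levels were 172 and 174 CPM, against 22.9 and 12.9 CPM in comparison nuclei, log2 ratios of 2.91 (1.97 to 3.74) and 3.76 (3.33 to 4.19). In cluster 13 it stood at 292 CPM (160 to 491) and 441 CPM (360 to 536), and at 410 and 431 CPM in the 19 and 69 nuclei of that group below that share of muscle-fibre UMIs. Of the 6 genes of the myotendinous list, Col22a1 and Col24a1 carried most UMIs in rule nuclei of cluster 13, with 14 and 27 in gastrocnemius and 101 and 33 in plantaris, and Slc24a2 had 0 in both libraries. Muscle-fibre nuclei with 3 or more Col22a1 UMIs, taken outside the rule and outside cluster 13, numbered 56 in gastrocnemius and 118 in plantaris and carried 1917 and 1716 CPM. The 7 muscle-fibre genes held a median of 8.66% and 7.54% of their UMIs, and the 6 rule genes summed to 4.09 and 18.1 CPM in them. Of these nuclei, 1 and 5 held 1 of the 6 genes, and by their choice outside the rule none could hold more. Their Col22a1 and muscle-fibre levels also follow in part from how they were chosen. These values are therefore no comparison with rule nuclei. In rule nuclei with Col22a1 the muscle-fibre genes held medians of 1.19% and 0.768%. The part of free RNA from junctional nuclei in the Col22a1 of rule nuclei was not tested.

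Between the muscles, the rule nuclei of 1 library were set against those of the other, so the muscle, the library and the mice cannot be told apart. Plantaris rule nuclei were 2-fold or more higher than gastrocnemius rule nuclei for 956 of 6305 genes (15.2%) and lower for 357 (5.66%), with a median log2 ratio of 0.05. With median-of-ratios scaling that median was 0.22 and the counts were 1251 and 232, so the share of these genes that stood higher in plantaris was 84.4% with that scaling and 72.8% with summed UMIs. Of the 956, 813 rested on 1 to 3 gastrocnemius UMIs, and 171 had an interval that excluded equal levels, as did 149 of the 357. Genes named below are also given for comparison nuclei, which share library and mice with the rule nuclei.

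Of the 7 muscle-fibre marker genes, 0 were past 2-fold between the muscles in either direction, beside 15.2% higher and 5.66% lower of all genes. With 7 genes this count is not read as a result. The list median was -0.27 in rule nuclei and -0.41 in comparison nuclei. Mybpc1, Myh1, Myl1 and Mical2, named by the size of their difference, had ratios of the same direction in comparison nuclei. Mybpc1, a slow-type myosin-binding protein, had 11 UMIs in gastrocnemius and 911 in plantaris rule nuclei, at 135 and 1102 CPM, a log2 ratio of 3.03 (2.19 to 4.04). In comparison nuclei its ratio was 1.99 (1.89 to 2.09). Myh1, the type 2X myosin heavy chain, had 1 and 236 UMIs, a log2 ratio of 4.54 (2.05 to 9.85), and 1.98 in comparison nuclei. Myl1, a fast myosin light chain, stood at 1139 CPM in gastrocnemius and 270 CPM in plantaris, a ratio of -2.08 (-2.43 to -1.71), and -2.12 in comparison nuclei. Mical2, an actin-oxidising enzyme, had -2.52 and -2.19.

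Bmp5, Col24a1, Bmpr1b, Apod and Hmgcll1 had ratios between the muscles that were larger in size in rule nuclei than in comparison nuclei. All but Bmpr1b were named for the size of their ratio in rule nuclei. A smaller ratio in comparison nuclei follows in part from that choice and is not read as a trait of these genes. Bmp5 had a log2 ratio of -2.06 (-2.62 to -1.48), from 465 CPM in gastrocnemius to 111 CPM in plantaris, against -0.67 (-0.94 to -0.39) in comparison nuclei, and -1.98 within cluster 13. Col24a1 had -2.44 (-3.12 to -1.74), from 29 and 54 UMIs, against -0.06 (-0.52 to 0.42), and -1.97 within cluster 13. Bmpr1b, a BMP receptor, went towards plantaris at 1.74 (0.80 to 2.89), against 0.20 in comparison nuclei, and 2.26 (1.10 to 3.73) within cluster 13 from 6 and 137 UMIs. Apod, a lipid carrier, had -2.09 and -0.14, and Hmgcll1 -3.18 and -0.55. Kcnip4, a potassium channel subunit, had the most negative ratio, -3.72, against 3.66 (2.83 to 4.63) in comparison nuclei, the opposite direction, but 12 of its 13 gastrocnemius UMIs came from 1 nucleus. Values within cluster 13 are those of its rule nuclei. The differences between rule and comparison nuclei in these ratios were not tested.

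Other genes named by the size of the difference towards plantaris, Tia1, Mctp1, Hdac9, Itgb5, Clcn3, Tmod3, Anxa3 and Pag1, had 1 or 2 gastrocnemius UMIs each, with lower interval bounds from 0.37 to 1.80 on the log2 scale. At 1000 UMIs Clcn3 and Anxa3 stood at -0.03 and -0.61, and without nuclei rich in markers of another class Pag1 stood at -0.28. Mctp1 had 56 of its 257 plantaris UMIs in 1 nucleus and 11 of them in cluster 13. Towards gastrocnemius, Col4a5, Fbxo7 and Atn1 rested on 9, 7 and 7 gastrocnemius UMIs. In the rule nuclei of cluster 13 the median log2 ratio of plantaris over gastrocnemius was 0.74 for fibril-associated and other collagens and 0.35 for fibrillar collagens. It was 0.31 for matricellular proteins and -0.67 for small leucine-rich proteoglycans, beside 0.00 over all genes. Genes with 0 gastrocnemius UMIs there and few in plantaris, such as Mfap5 with 0 and 10, enter as 0.00. The 0.00 over all genes is therefore not a neutral baseline. Single genes spread widely around these medians: among the fibrillar collagens Col5a3 had 2.30, on 2 gastrocnemius UMIs, and Col24a1 had -1.97. Over all rule nuclei the collagen-processing list had 5 of 16 genes higher in plantaris and 0 in gastrocnemius, beside 15.2% and 5.66% of all genes. Of the 5, Serpinh1, Pcolce, Pcolce2, Bmp1 and P4ha1 had 1, 1, 2, 4 and 11 gastrocnemius UMIs. The list median was 0.66, against 0.38 in rule nuclei of cluster 13 and 0.50 in comparison nuclei.

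**Figure D5:**
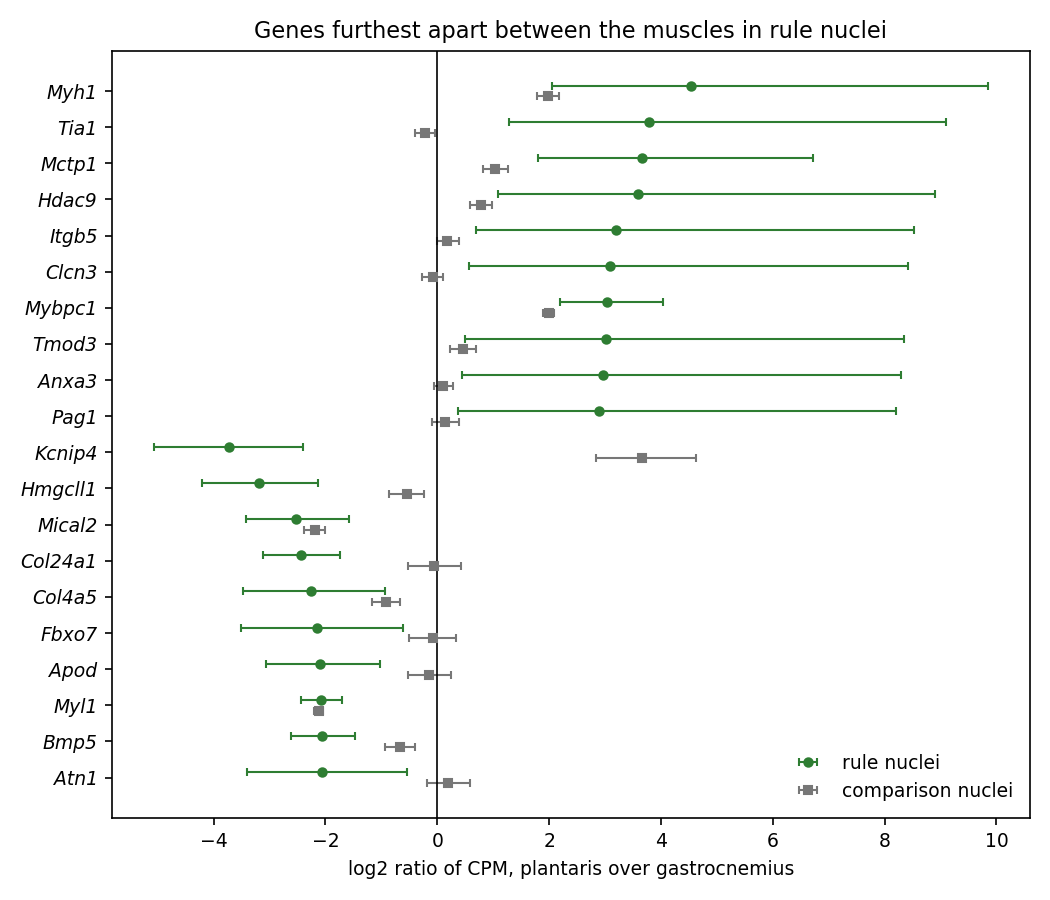
Log2 ratio of plantaris over gastrocnemius in rule nuclei (green) and comparison nuclei (grey) for the 10 genes furthest apart in each direction, with exact 95% intervals. Myl1 and Mical2 have like ratios in both kinds of nuclei. Bmp5 and Col24a1 lie at -2.06 and -2.44 in rule nuclei and at -0.67 and -0.06 in comparison nuclei. The genes were picked on the rule nuclei, so smaller ratios in comparison nuclei follow in part from that choice.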

How the data were processed

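Single-nucleus RNA sequencing libraries of gastrocnemius and plantaris, 1 per muscle, were made with 10x Chromium 3' chemistry, per the labels. The authors deposited UMI counts as whole numbers for 32285 genes in 16530 nuclei, with a table of the library of each barcode; Cell Ranger 6.0.1 and genome build mm10 are named in the submitters' processing notes. The sources used here name neither the annotation nor the handling of intronic reads. The lowest total was 500 UMIs per nucleus. Libraries held 19048595 (gastrocnemius) and 29248275 (plantaris) UMIs, with medians of 2260 and 2714 per nucleus.

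Rule nuclei totalled 81655 and 826336 UMIs and comparison nuclei 3193731 and 5348538. Counts were summed per group and library and given as CPM. Log2 ratios carry exact conditional binomial intervals, shares exact Clopper-Pearson intervals and CPM exact Poisson intervals, all at 95%. Where a summed count was 0, the ratio, and any limit printed for it, used 3 counts in its place. A ratio that this would turn towards the group with the 0 was set to 0. Such a value means that no difference could be measured, and medians over genes include it. Intervals take UMIs as independent and do not cover variation between nuclei or mice. No filter on nuclei and no doublet caller was applied; instead, nuclei with 2 or more markers of another class, or at least 50% of the library's median share of muscle-fibre UMIs, were left out as an alternative. Clusters came from leidenalg 0.10.2 (resolution 1, seed 0) on 30 principal components of 2000 variable genes without the 6 rule genes, with 15 neighbours. The contrast was run on simulated independent counts in which the changed genes had many UMIs in comparison nuclei. It is therefore no check of genes that rest on few UMIs or on single nuclei.

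Members and gene lists were chosen with earlier results of these data known. Named genes were the 15 higher and 10 lower genes with the largest of the smaller log2 ratio of both libraries, the 10 most different in each direction between muscles, leaving out unnamed gene models, and list genes with 20 or more UMIs in rule nuclei. Chad, Egr1, Sox9, Tbx5, Myf5, Acan, Slc24a2, Adipoq, Plin1 and Cidec had fewer and were named after their values were seen. Of 345 list genes, 344 were in the table.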

Additional observations from a re-analysis of the deposited data

Results flagged for a closer look

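Fgfr2, a receptor for fibroblast growth factors, lay on opposite sides of the comparison nuclei in the 2 libraries. In gastrocnemius rule nuclei it had 11 UMIs, at 135 CPM against 284 CPM in comparison nuclei, a log2 ratio of -1.08 (exact 95% interval -2.09 to -0.23). In plantaris rule nuclei it had 181 UMIs, at 219 CPM against 181 CPM, a log2 ratio of 0.28 (0.04 to 0.51). The difference between the libraries was not tested, and in rule nuclei of cluster 13 against mesenchymal clusters the ratios were -0.08 and 0.24.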

How the results depend on the processing

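Few UMIs limit every gastrocnemius value: 32 rule nuclei, 81655 UMIs. No paired analysis was possible because each muscle has 1 library and the labels give no replicate numbers. Rule nuclei numbered 32 and 141 in gastrocnemius and plantaris. They numbered 7 and 54 with 3 or more of the genes, 16 and 49 at 1000 UMIs, 17 and 71 without nuclei rich in markers of another class, and 10 and 81 without Thbs4 (chosen after seeing the data). A filter of 200 genes and 5% mitochondrial UMIs left 32 and 141. The share in 1 cluster was 65.9% and 64.2% at other resolutions and 86.1% with the 6 genes clustered.

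Genes higher in rule nuclei numbered 170. They numbered 322 in cluster 13, 77 against comparison nuclei with both Pdgfra and Dcn, 279 by mean CPM, 278 and 90 at minima of 10 and 50 UMIs, and 55 at 4-fold; of the main 170, 133 were among the 322. Genes lower numbered 18. They numbered 10 with 3 or more genes, 100 at 1000 UMIs, 92 without mixed nuclei, 113 in cluster 13, 69 without nuclei of 10000 UMIs or more, 101 against nuclei with both genes, 121 against mesenchymal clusters, 28 by median of ratios, 269 by mean CPM, 0 at 4-fold and 8 by intervals.

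Between the muscles, 956 and 357 genes were higher in plantaris and gastrocnemius. They numbered 399 in plantaris with 3 or more genes, 68 and 47 at 1000 UMIs, 337 and 149 without mixed nuclei, 401 and 169 in cluster 13, 425 and 108 at 50 UMIs, 160 and 18 at 4-fold, and 171 and 149 by intervals. Towards gastrocnemius they were 232 by median of ratios, 602 by mean CPM and 728 at 10 UMIs. The causes were not tested, beyond fewer nuclei or genes.

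Among 450 alternative values of named genes against comparison nuclei, 335 stayed within counting error, 111 moved and 4 reversed; between muscles 104 of 140 stayed, 33 moved and 3 reversed. Reversed were Mgst3 in gastrocnemius (0.74 with 3 or more genes, 2.43 without mixed nuclei) and plantaris (0.15 against nuclei with both genes), Phf24 in plantaris (0.14 at 1000 UMIs), Clcn3 and Anxa3 (-0.03 and -0.61 at 1000 UMIs) and Pag1 (-0.28 without mixed nuclei).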
